A study of Mus musculus with 4 samples.

Results

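Genes of the amino acid, endoplasmic reticulum (ER), heat shock and oxidative stress responses were followed in the RAW 264.7 line, mouse macrophage-like cells that form osteoclasts under RANKL and M-CSF. The members are 34 genes in 4 arms: 16 genes of the ATF4 arm, 7 of the ER chaperone arm, 6 of the heat shock arm and 5 of the NRF2 arm. They were taken as the probe sets whose platform annotation gives exactly that gene symbol, with the highest-mean probe set for each gene, and 33 of the 34 were found among 19938 genes. Hspa1b had no probe set with its symbol alone and is not analysed here. Of the 33, all but Nqo1 exceeded a floor of 4.25 on the log2 scale on at least 1 array, as did 13545 genes in all.

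The 4 groups combine a vector, control or miR-155-expressing, with a state, unstimulated or after 72 h of RANKL (the ligand that drives osteoclast formation) and M-CSF (a macrophage growth factor). A dose of 20 ng/ml is given for the cytokines, with no word on whether it is that of each. The control vector is taken from the sample descriptions, although the series text speaks of wild-type cells. The labels do not say which promoter drives the microRNA or whether clones or pools were used, and a single line stands for all macrophages here. With 1 array a group, a difference between arrays comes with no replicate error and no p-value, and precision is limited by the small number of arrays. The microRNA carried by the vector acts through the bases of its seed, and its mature mouse form in RefSeq (GRCm38.p6, chr16:84714143-84714165, plus strand) is shown with the seed, bases 2 to 8, in capitals.
mmu-miR-155-5p: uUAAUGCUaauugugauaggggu

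The 4 arms are textbook branches of the cell's stress responses. Kinases that sense missing amino acids, unfolded ER proteins, viral RNA or heme shortage phosphorylate eIF2 alpha, which slows translation and raises production of the transcription factor ATF4, an activator of genes for amino acid synthesis and import. XBP1 and ATF6 drive ER chaperone genes, HSF1 drives cytosolic chaperones, and NRF2, held in check by KEAP1, drives glutathione and thioredoxin genes. Much of this control is exerted on the proteins, which an array does not read.

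Among 1210 olfactory and vomeronasal receptor probe sets, used as a noise reference for dim signals, 95% differed by less than 0.48 (log2) with stimulation under the control vector and 0.41 under miR-155. The same limits were 0.37 between the vectors without stimulation and 0.47 with it. These limits were not measured on bright genes, so a difference within them is not shown to be noise. The stimulated control array stood apart, with Pearson correlations of 0.908 to 0.937 with the other arrays across genes above the floor, against 0.982 to 0.989 among the other 3 pairs. In that array 4 of 6 macrophage markers were more than 1.5-fold lower and 6 of 6 osteoclast markers more than 1.5-fold higher than in unstimulated control cells, against none and 5 of 6 in the miR-155 cells. The macrophage genes Csf1r (11.46 to 12.00) and Cd68 (12.45 to 12.96) were high on all arrays. Of the 2 T cell, 2 B cell and 3 fibroblast or osteoblast markers measured, none differed by more than 1.5-fold in any comparison, and both B cell markers stayed below the floor. The part of this wider difference in the stress genes was not tested. In these cultures fewer cells of a kind and less RNA per cell cannot be told apart.

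Without stimulation, members that differed between the vectors by more than 1.5-fold were all in the ATF4 arm and all lower in miR-155 cells. They were Atf3, Ddit3, Trib3, Sesn2 and Slc7a11, 5 of 32 members above the floor, where 3.15% of all genes were that much lower. No member was that much higher, against 1.18% of all genes. The ATF4 arm had a median difference of -0.35 (log2), with 14 of its 16 members lower, beside a median of -0.00 over all genes. The ER arm had a median of 0.03, the heat shock arm 0.13 and the NRF2 arm 0.06. Between the same 2 arrays Ctsk, the osteoclast protease cathepsin K, was at 6.72 in control and 4.26 in miR-155 cells, 5.48-fold lower, and 3 of 13545 genes had a difference at or below its -2.45. The macrophage markers Adgre1 (-0.91) and Fcgr1 (0.67) also differed past 1.5-fold, and the other 9 macrophage and osteoclast markers did not.

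With stimulation 10 members were more than 1.5-fold lower and 7 higher in miR-155 cells, where 13.6% and 12.4% of all genes were. The ATF4 arm again had the lowest median, -0.54, with 13 of 16 members lower, beside -0.03 over all genes. Past 1.5-fold, 8 of its members were lower and 3 (Atf3, Psat1 and Slc7a5) higher. Of the markers, all 6 of the osteoclast list were more than 1.5-fold lower and 4 of 6 of the macrophage list higher in stimulated miR-155 cells. The part of these marker differences in the ATF4 values was not tested in either state. These comparisons between the vectors in the 2 states share no array. The plot of levels gives each member on each array.

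**Figure D1:**
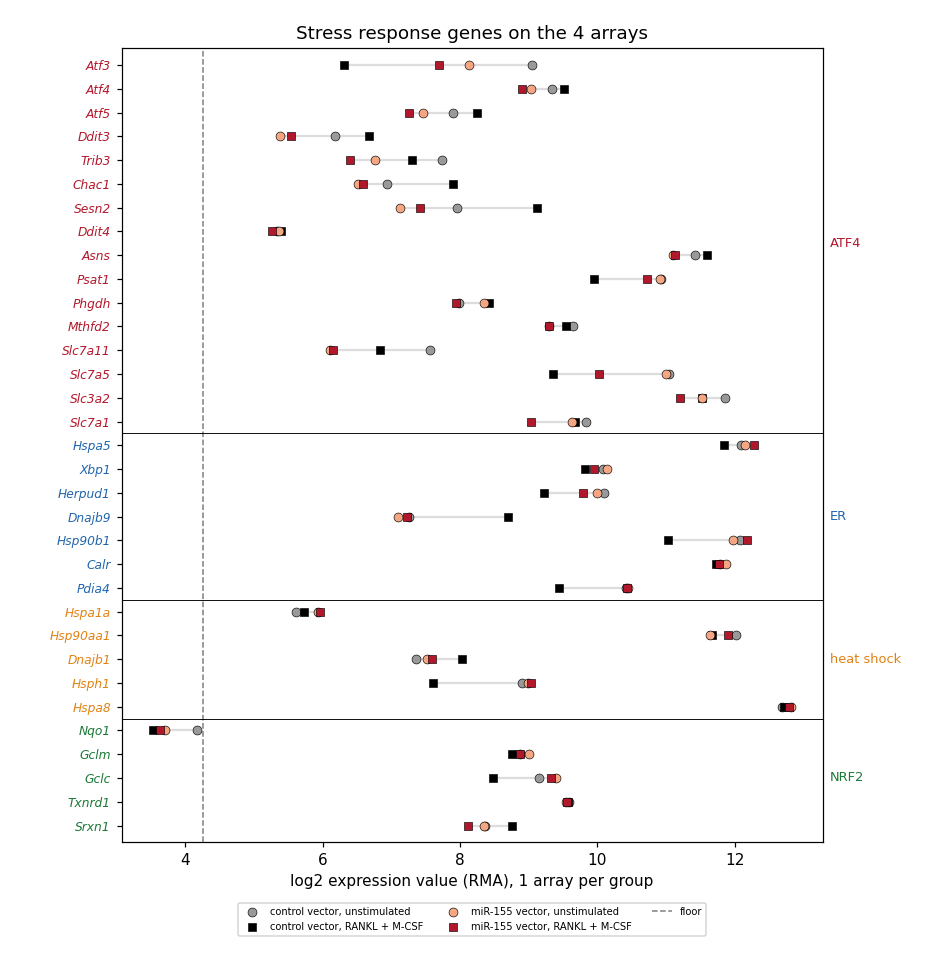
Log2 expression values (x axis) of the 33 measured members (y axis, coloured by arm) on the 4 arrays, 1 point per array, with the floor of 4.25 as a dashed line. The miR-155 points of Ddit3, Trib3, Chac1, Sesn2 and Slc7a11 lie below both control points, and the stimulated control point of Atf3, Dnajb9, Hsp90b1, Pdia4 and Hsph1 lies away from the other 3.

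Ddit3, Trib3, Sesn2 and Slc7a11 were more than 1.5-fold lower in miR-155 cells in both states. They are 4 of the 32 members, or 12.5%, where 1.22% of all genes met this. Slc7a11 encodes the cystine importer of system xc-, which feeds glutathione synthesis and answers to both ATF4 and NRF2. Its level was 7.56 in unstimulated and 6.83 in stimulated control cells, and 6.11 and 6.14 in miR-155 cells. Without stimulation it was 2.74-fold lower in miR-155 cells, and 16 of 13545 genes had a difference at or below its -1.45. With stimulation, where the level in control cells was lower, the difference was -0.69. The miR-155 values lay below both control values.

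Sesn2, a sestrin that restrains mTORC1 when leucine is short, stood at 7.96 and 9.12 in control cells without and with stimulation and at 7.13 and 7.42 in miR-155 cells. The gap between the vectors was thus 1.77-fold without stimulation and 3.25-fold with it. Trib3, a pseudokinase that dampens ATF4 and AKT signalling, stood at 7.74 and 7.30 in control cells and at 6.77 and 6.40 in miR-155 cells, a difference of -0.98 and -0.90. Ddit3 encodes CHOP, the factor that turns prolonged ER stress toward cell death. It stood at 6.18 and 6.67 in control cells and at 5.37 and 5.53 in miR-155 cells, a difference of -0.81 and -1.13. For these 3 genes too, both miR-155 arrays lay below both control arrays.

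Chac1, Atf4 and Atf5 were lower in miR-155 cells in both states but past 1.5-fold only with stimulation. Chac1, which breaks down glutathione, was at 6.93 and 7.89 in control cells and 6.51 and 6.59 in miR-155 cells. Its difference was -0.42 without and -1.30 with stimulation. Atf4 itself, whose protein is set mainly by translation, was at 9.33 and 9.51 in control and 9.03 and 8.91 in miR-155 cells, with differences of -0.30 and -0.61. Atf5, a related factor under the same translational control, had -0.44 and -0.99. Ddit4, an mTORC1 inhibitor also known as REDD1, stayed between 5.26 and 5.39 on all 4 arrays.

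Atf3, a stress-induced repressor of inflammatory genes, lay on opposite sides of the control in the 2 states. Its level was 9.04 in unstimulated and 6.30 in stimulated control cells, and 8.13 and 7.69 in miR-155 cells. It was 1.88-fold lower in miR-155 cells without stimulation and 2.61-fold higher with it. The stimulated control array alone was low.

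**Figure D2:**
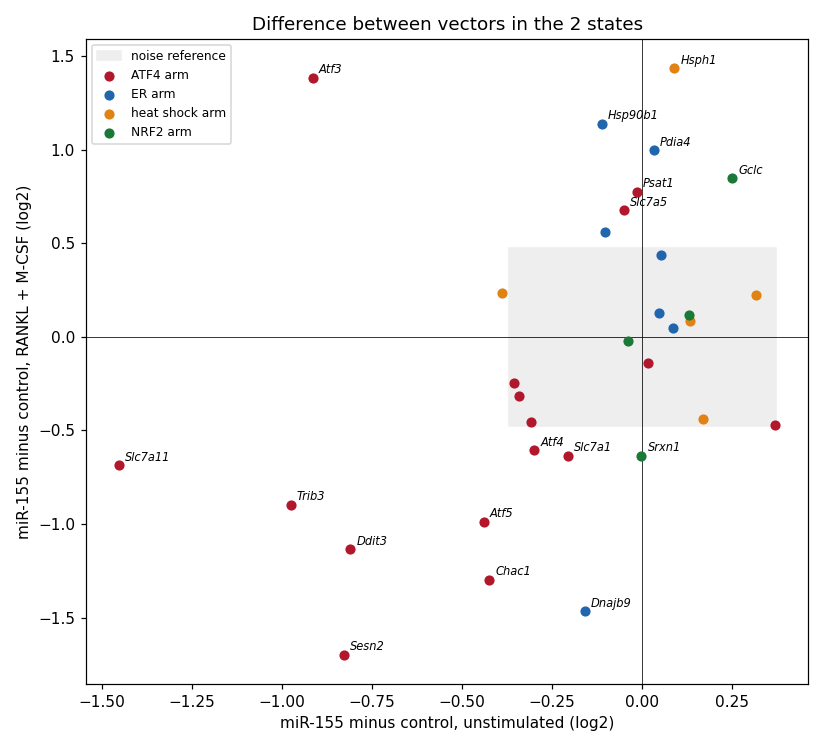
Difference between miR-155 and control cells (log2) without stimulation (x axis) and with RANKL and M-CSF (y axis) for the 32 members above the floor, with 1 array per group and the noise reference as a grey box. Ddit3, Trib3, Sesn2 and Slc7a11 sit at the lower left, and ER members lie near 0 on the x axis.

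Of the serine, folate and asparagine enzymes, none passed 1.5-fold between the vectors without stimulation. Asns, asparagine synthetase, was at 11.42 and 11.59 in control cells and 11.11 and 11.14 in miR-155 cells, differences of -0.31 and -0.45, both inside the noise reference. Mthfd2, a mitochondrial folate enzyme, had -0.36 and -0.25. Psat1, a transaminase of serine synthesis, was level without stimulation (-0.01) and higher with it (0.78), its stimulated control array reading 9.95 against 10.72 to 10.92 elsewhere. Phgdh, which catalyses the first step of serine synthesis, had 0.37 and -0.47, and a further probe set of this gene carries several symbols and was left out. Of these 4 enzymes only Psat1 passed 1.5-fold in a comparison between the vectors.

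Transporters other than Slc7a11 also stood close together without stimulation. Slc3a2, the heavy chain shared by Slc7a5 and Slc7a11, had differences of -0.34 and -0.32. Slc7a1, an importer of arginine and lysine, had -0.21 and -0.63. Slc7a5, the large neutral amino acid transporter LAT1, had -0.05 without stimulation and 0.68 with it. It was the member with the lowest response to stimulation in miR-155 cells and is taken up again with stimulation.

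Promoter sequence upstream of the ATF4 arm was searched for the C/EBP-ATF response element, to which ATF4 dimers bind. RefSeq promoter windows (GRCm38.p6) were found for 30 of the 34 members, 15 of them in the ATF4 arm, and the 250 bases before the gene start were read on both strands. For every motif a gene was counted if any window under its symbol held a match, whereas the shares of all windows count single windows. The letters TGATGNAA occurred in 4 of the 15 genes (Atf3, Chac1, Asns and Slc7a11), in the ER gene Herpud1 and in none of the heat shock and NRF2 genes, against 3.45% of all 32851 windows. These 4 are shown because 3 of them are among the members just described and Asns is a standard target of ATF4, with the matches in capitals. They come from chr1:191183334-191183583 (minus strand) for Atf3, chr2:119350992-119351241 (plus strand) for Chac1, chr6:7693210-7693459 (minus strand) for Asns and chr3:50443614-50443863 (minus strand) for Slc7a11.
Atf3: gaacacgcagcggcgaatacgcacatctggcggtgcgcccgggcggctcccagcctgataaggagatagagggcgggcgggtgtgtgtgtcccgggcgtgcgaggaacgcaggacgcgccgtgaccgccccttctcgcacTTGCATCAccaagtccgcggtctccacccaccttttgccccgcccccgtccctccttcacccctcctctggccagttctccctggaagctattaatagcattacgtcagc
Chac1: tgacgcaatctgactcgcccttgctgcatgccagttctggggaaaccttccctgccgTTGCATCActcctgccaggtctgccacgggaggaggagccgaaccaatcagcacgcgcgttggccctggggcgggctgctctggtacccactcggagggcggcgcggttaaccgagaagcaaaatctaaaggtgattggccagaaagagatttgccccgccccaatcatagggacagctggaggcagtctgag
Asns: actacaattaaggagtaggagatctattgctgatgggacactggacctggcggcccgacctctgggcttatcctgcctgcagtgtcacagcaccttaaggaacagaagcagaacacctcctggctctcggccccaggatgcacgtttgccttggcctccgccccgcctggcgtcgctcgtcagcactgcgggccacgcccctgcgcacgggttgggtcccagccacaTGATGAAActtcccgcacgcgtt
Slc7a11: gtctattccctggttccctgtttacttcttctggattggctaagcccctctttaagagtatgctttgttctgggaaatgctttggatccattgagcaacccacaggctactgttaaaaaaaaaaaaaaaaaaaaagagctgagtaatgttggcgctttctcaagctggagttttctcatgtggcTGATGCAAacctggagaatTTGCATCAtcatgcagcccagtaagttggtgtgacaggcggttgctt
The matches begin 110, 193 and 23 bases before the gene start in Atf3, Chac1 and Asns. Slc7a11 has 2, on opposite strands, beginning 66 and 47 bases before it. None overlaps a match to another motif searched here. Sesn2, Trib3 and Ddit3 have no such letters in this window, which says nothing of the rest of those genes.

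A further list of 33 genes of the ATF4 pathway, drawn from textbook knowledge with the earlier results of these data known, had the same sign. Of its 30 genes above the floor, 25 were lower in miR-155 cells without stimulation, with a median of -0.20, and 6 were more than 1.5-fold lower and none higher (3.15% and 1.18% of all genes). With stimulation the median was -0.59, with 15 lower and 1 higher past 1.5-fold (13.6% and 12.4% of all genes). The 6 genes past 1.5-fold in the unstimulated cells were also past it in the stimulated cells. They are 20% of the 30, where 1.22% of all genes were that much lower in both states. Cth, which makes cysteine from cystathionine, was at 7.00 and 8.99 in control cells and 5.95 and 6.72 in miR-155 cells. Ndrg1, a gene induced by hypoxia and stress, was at 9.99 and 9.58 in control cells and 8.52 and 8.30 in miR-155 cells. The others were the glycine transporter Slc6a9 (-0.84 and -1.10), the neutral amino acid transporter Slc1a4 (-0.67 and -1.07), the folate enzyme Aldh1l2 (-0.65 and -1.19) and the stress factor Nupr1 (-0.81 and -0.67). The eIF2 alpha kinases themselves lay within the noise reference without stimulation: Eif2ak1 0.21, Eif2ak2 (PKR) -0.10, Eif2ak3 (PERK) -0.04 and Eif2ak4 (GCN2) -0.08. With stimulation Eif2ak2 (0.85) was higher and Eif2ak3 (-0.63) and Eif2ak4 (-0.77) lower in miR-155 cells past 1.5-fold, and Eif2ak1 had -0.15.

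**Figure D3:**
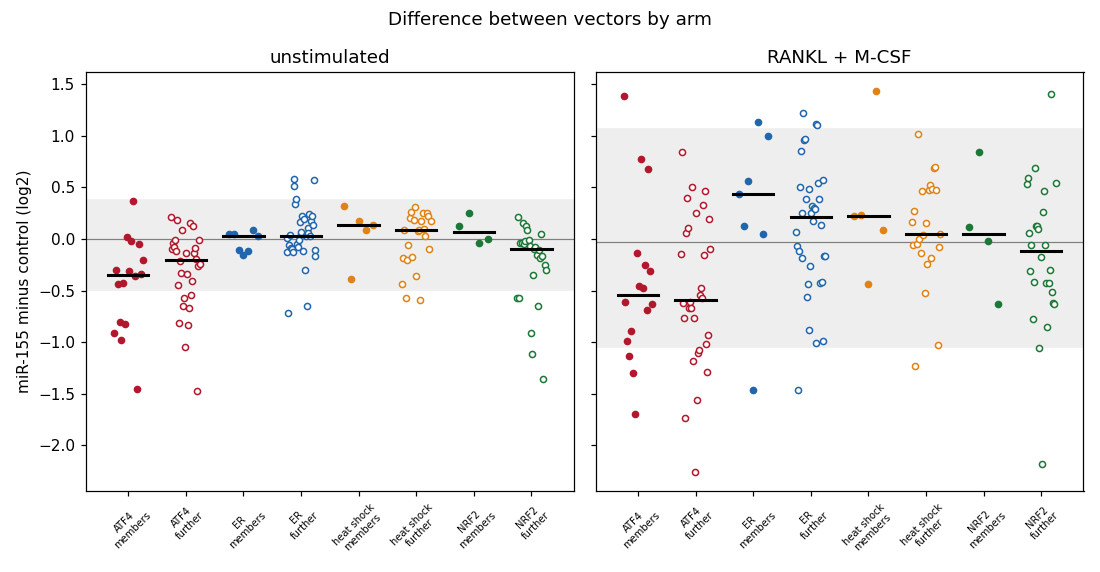
Difference between miR-155 and control cells (log2, y axis) for members (filled) and further pathway genes (open) of each arm above the floor, without stimulation (left) and with RANKL and M-CSF (right), 1 point per gene and black bars at the medians. The grey band holds the middle 90% of all genes. The ATF4 members (-0.35 and -0.54) and further genes (-0.20 and -0.59) have the lowest medians in both panels.

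An additive limma model over the 4 arrays called 0 of 13545 genes for the vector at an adjusted p of 0.05. At an unadjusted p under 0.05, 156 were higher and 367 lower. Its only residual is the disagreement between the 2 states or vectors, and limma draws the error of each gene toward a value shared by all genes. The SEs given here are thus not the spread of the single gene or of replicate cultures. The lowest adjusted p among the members was 0.89. At the unadjusted level 6 of 32 members were lower and none higher, where 2.71% and 1.15% of all genes were. All 6 belong to the ATF4 arm: Sesn2 (-1.26, SE 0.29), Slc7a11 (-1.07, SE 0.27), Ddit3 (-0.97, SE 0.21), Trib3 (-0.94, SE 0.19), Chac1 (-0.86, SE 0.29) and Atf5 (-0.71, SE 0.24), each lower in 2 of 2 states. None of them passes the correction over all genes.

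Stimulation of control cells came with differences in both directions in 3 of the 4 arms, and stimulation of miR-155 cells with few. Counting members past 1.5-fold, control cells had 4 of 32 higher and 9 lower, where 12.4% and 15.2% of all genes were. The share of higher members was thus near that of all genes. In miR-155 cells none was higher and 2 were lower, against 3.43% and 3.74% of all genes. Those 2, Slc7a5 and Slc7a1, are both amino acid importers. Fewer differences with stimulation in miR-155 than in control cells were seen over all genes as well. The difference of the responses passed 1.5-fold upward in 10 members and downward in 6, against 14.5% and 13.9% of all genes, and was not tested. These values rest on the stimulated control array, which stood apart over all genes as well.

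Slc7a5 was lower with stimulation in both vectors. It went from a level of 11.05 to 9.35 in control cells and from 11.00 to 10.02 in miR-155 cells, 3.25-fold and 1.96-fold lower. In miR-155 cells 31 of 13545 genes had a difference at or below its -0.97. Over both vectors limma called 0 of 13545 genes at an adjusted p of 0.05, with 543 higher and 482 lower at an unadjusted p under 0.05. For Slc7a5 it gave -1.34 (SE 0.26) with an adjusted p of 0.647, lower in 2 of 2 vectors, and it was the 1 member at an unadjusted p under 0.05, where 3.56% of all genes were lower and 4.01% higher. Slc7a1 differed by -0.17 under the control vector and by -0.60 under miR-155, the latter just past 1.5-fold and inside it after either renormalization. Atf3 had the lowest value of any member in control cells, -2.74 or 6.68-fold lower, and -0.44 in miR-155 cells.

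Sesn2 and Chac1 were the ATF4 members more than 1.5-fold higher with stimulation in control cells, at 2.23-fold and 1.94-fold. In miR-155 cells their differences were 0.29 and 0.08, within the noise reference. Ddit3 (0.48), Atf5 (0.35) and Atf4 (0.18) showed smaller values in control cells, the last 2 within the noise reference. Psat1 (-0.98) and Slc7a11 (-0.73) were lower in control cells and close to 0 or within the noise reference in miR-155 cells (-0.19 and 0.04). The arm as a whole had medians of -0.03 and -0.16, beside -0.02 and -0.03 over all genes.

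Of the 30 further genes of the pathway, 8 were more than 1.5-fold higher and 4 lower in control cells, where 12.4% and 15.2% of all genes were, so the share of lower ones was near that of all genes. Jdp2, a bZIP factor of osteoclast formation, was higher by 3.01 in control and 2.33 in miR-155 cells. Cth was higher by 1.99 and 0.78. Ppp1r15a encodes GADD34, which returns eIF2 alpha to its unphosphorylated state. It was at 6.52 and 8.26 in control cells and at 6.51 and 6.53 in miR-155 cells, so the stimulated control array alone was high. Eif2ak3 (0.62) and Eif2ak4 (0.64) were higher and Eif2ak2 (-0.80) lower in control cells, with values within the noise reference in miR-155 cells (0.04, -0.05 and 0.15).

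**Figure D4:**
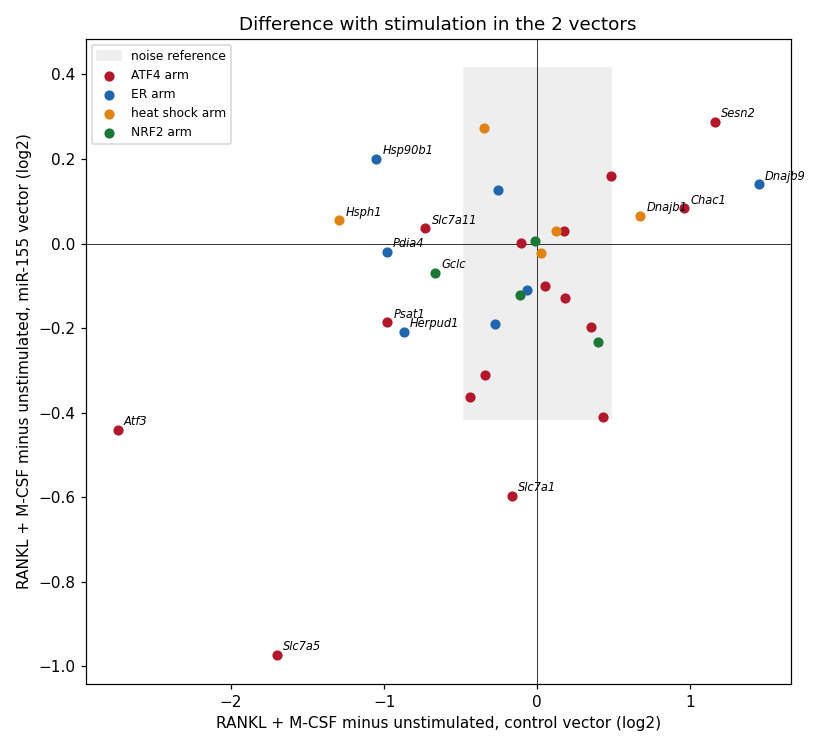
Difference with RANKL and M-CSF (log2) under the control vector (x axis) and the miR-155 vector (y axis, on a finer scale) for the 32 members above the floor, with the noise reference as a grey box. Members spread from -2.74 (Atf3) to 1.45 (Dnajb9) along the x axis and from -0.97 (Slc7a5) to 0.29 (Sesn2) along the y axis.

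The ER chaperone arm was alike in the 2 vectors without stimulation, all 7 members lying between -0.16 and 0.09, inside the noise reference. With stimulation of control cells 3 members were more than 1.5-fold lower and 1 higher, beside 15.2% and 12.4% of all genes, and the median was -0.27. Hsp90b1, the ER form of HSP90 known as GRP94, was at 12.08 and 11.03 in control cells and at 11.97 and 12.17 in miR-155 cells. Pdia4, a protein disulfide isomerase also called ERp72, was at 10.42 and 9.44 in control cells and at 10.45 and 10.43 in miR-155 cells. Herpud1, a partner of ER-associated degradation, was at 10.10 and 9.23 in control cells and at 10.00 and 9.79 in miR-155 cells. Each of the 3 read lowest on the stimulated control array.

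Dnajb9 read highest on that array. This ER co-chaperone, ERdj4, binds the stress sensor IRE1 and is a classic target of XBP1. It was at 7.25 and 8.70 in control cells and at 7.09 and 7.23 in miR-155 cells, 2.72-fold higher with stimulation in control cells and 2.76-fold lower in miR-155 than in control cells after stimulation. Hspa5, the master ER chaperone BiP, stayed between 11.84 and 12.27, Xbp1 between 9.81 and 10.14 and the lectin chaperone Calr between 11.72 and 11.88. No ER member differed past the noise reference with stimulation in miR-155 cells.

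Promoters of the ER arm were searched in the same way for the ER stress response element, CCAAT and CCACG with 9 bases between, which ATF6 binds together with NF-Y. It occurred in 3 of the 7 genes (Hspa5, Hsp90b1 and Calr), against 0.113% of all windows. Hspa5 and Hsp90b1 are shown because they differ in the data, Hspa5 within the noise reference and Hsp90b1 more than 2-fold lower on the stimulated control array, from chr2:34771840-34772089 (plus strand) and chr10:86705445-86705694 (minus strand), with matches in capitals.
Hspa5: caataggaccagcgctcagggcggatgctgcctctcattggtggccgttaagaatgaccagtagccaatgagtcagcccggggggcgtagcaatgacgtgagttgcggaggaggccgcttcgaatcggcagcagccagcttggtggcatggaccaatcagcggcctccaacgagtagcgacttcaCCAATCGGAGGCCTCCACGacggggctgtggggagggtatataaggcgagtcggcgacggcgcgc
Hsp90b1: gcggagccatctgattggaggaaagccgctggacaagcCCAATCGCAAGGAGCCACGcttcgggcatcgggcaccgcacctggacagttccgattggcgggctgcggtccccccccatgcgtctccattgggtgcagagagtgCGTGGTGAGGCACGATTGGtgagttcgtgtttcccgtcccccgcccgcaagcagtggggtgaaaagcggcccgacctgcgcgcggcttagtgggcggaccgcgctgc
The match in Hspa5 begins 65 bases before the gene start, and the 2 in Hsp90b1 begin 212 and 107 bases before it. Pdia4, Herpud1 and Dnajb9 have none in this window. The XBP1 motif TGACGTGG was in none of the members' windows and in 0.563% of all windows.

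Of the 34 further ER genes above the floor, 8 were more than 1.5-fold lower and 2 higher with stimulation in control cells, with a median of -0.21. Of all genes 15.2% were that much lower and 12.4% higher, so the share of higher ER genes was below that of all genes. The lower ones include the chaperone Hyou1 (-0.74), the disulfide isomerase Pdia6 (-0.95), the HSP70 relative Hspa13 (-0.93) and the oxidase Ero1b (-1.01). The higher ones were Ern1 (1.04), which encodes the stress sensor IRE1 alpha, and Wfs1 (1.24), an ER membrane protein. Atf6 (-0.33) stayed within the noise reference. In miR-155 cells 1 of 34 passed 1.5-fold, Atf6b at -0.64, where 3.74% of all genes were that much lower. Between the vectors Ern1 was lower in miR-155 cells in both states (-0.71 and -1.46), as was the oxidase Ero1a (-0.65 and -1.01), while Hyou1 was higher (0.59 and 1.22).

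The heat shock arm had 5 measured members. Without stimulation none differed between the vectors by more than 1.5-fold, where 3.15% of all genes were lower and 1.18% higher. Hsph1, the HSP110 nucleotide exchange factor, was at 8.90 and 7.60 in control cells and at 8.99 and 9.04 in miR-155 cells. It was 2.45-fold lower with stimulation in control cells. Dnajb1, the HSP40 co-chaperone, was at 7.36 and 8.03 in control cells and at 7.53 and 7.59 in miR-155 cells, 1.60-fold higher in control cells. The stimulated control array was thus the lowest for Hsph1 and the highest for Dnajb1, both of them targets of HSF1.

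Hspa8, the constitutive HSC70, stayed between 12.69 and 12.82, and its 3 probe sets gave differences of 0.03, 0.04 and 0.19 with stimulation in control cells. Hsp90aa1, the inducible cytosolic HSP90, had -0.35 with stimulation under the control vector and 0.27 under miR-155. Its 3 probe sets gave -0.35, -0.31 and -0.29 in the first comparison. Hspa1a, inducible HSP70, stayed between 5.61 and 5.96. Its near-identical copy Hspa1b shares 1 probe set with it that was left out, so the 2 genes may not be separable. The heat shock element, GAA, TTC and GAA each 2 bases apart, was found in none of the 4 promoters of the arm and in 0.466% of all windows.

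Among 23 further genes of the heat shock list above the floor, not all of them chaperones, 2 were more than 1.5-fold higher and 3 lower with stimulation in control cells. None was in miR-155 cells, where 3.43% of all genes were higher and 3.74% lower. The shares in control cells were no larger than the 12.4% and 15.2% of all genes. Dedd2 (1.58) and the HSP110 relative Hspa4l (1.15) were higher, and Dnajb6 (-1.01) and Hspa14 (-0.92) led the lower ones. Without stimulation Dnajb6 (-0.59, just past the limit) alone of the 23 passed 1.5-fold between the vectors. Of all genes 3.15% were that much lower and 1.18% higher. Hsf1 was not analysed here.

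In the NRF2 arm no member passed 1.5-fold between the vectors without stimulation, where 3.15% of all genes were lower and 1.18% higher. With stimulation of control cells 1 of the 4 above the floor was that much lower, where 15.2% of all genes were. Txnrd1, cytosolic thioredoxin reductase, stayed between 9.55 and 9.59 on the 4 arrays, and Gclm, the modifier subunit of glutamate-cysteine ligase, between 8.76 and 9.00. Gclc, the catalytic subunit of the same enzyme, was at 9.15 and 8.48 in control cells and at 9.40 and 9.33 in miR-155 cells, 1.59-fold lower with stimulation in control cells. Srxn1, which repairs oxidized peroxiredoxins, was at 8.36 and 8.76 in control cells and at 8.36 and 8.12 in miR-155 cells. Between the stimulated vectors Gclc was higher (0.85) and Srxn1 lower (-0.64) in miR-155 cells, both past 1.5-fold. Of all genes 12.4% were that much higher and 13.6% lower. Nqo1, a quinone reductase and standard NRF2 target, did not exceed the floor on any array (3.54 to 4.17), and no fold is given for it. The median of the 4 members above the floor lay between -0.10 and 0.06 in the 5 comparisons.

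Nfe2l2, the gene of NRF2, was at 9.79 and 8.45 in control cells and at 9.22 and 8.98 in miR-155 cells. It was lower with stimulation in control cells (-1.34), as were its inhibitor Keap1 (-0.65) and Bach1 (-0.69), a repressor at the same DNA elements and a reported miR-155 target. Bach1 was at 7.90 in unstimulated control cells and at 7.21 to 7.33 on the other 3 arrays. Of 26 further NRF2 genes above the floor, 9 were more than 1.5-fold lower and 4 higher with stimulation in control cells, against 15.2% and 12.4% of all genes, the lowest being the exporter Abcc4 (-1.74) and the highest the glutathione transferase Gstp1 (1.87). Gstp1 (0.80) and the autophagy adaptor Sqstm1 (0.99) were the 2 past 1.5-fold in miR-155 cells, both higher, as were 3.43% of all genes. Without stimulation 21 of the 26 further genes were lower in miR-155 than in control cells, with a median of -0.10. Past 1.5-fold 4 were lower and none higher, against 3.15% and 1.18% of all genes. Gstp1 (-1.11 and -2.18), Sqstm1 (-0.65 and -0.86) and the epoxide hydrolase Ephx1 (-1.36 and -0.62) were past it in both states. They are 11.5% of the further genes, where 1.22% of all genes met this. The glutathione transferase Gstm1 was past it only without stimulation (-0.91 and -0.17).

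The element bound by NRF2 with small MAF proteins was searched as TGACNNNGC. It was present in 2 of the 4 NRF2 arm genes with a promoter window (Gclm and Txnrd1) and in 10.2% of all windows, and in 4 of 15, 2 of 7 and 2 of 4 genes of the ATF4, ER and heat shock arms.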

How the data were processed

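Labelled cRNA from 100 ng of total RNA of each RAW 264.7 culture was read on Affymetrix Mouse Gene 1.0 ST arrays (protocol per the labels). The authors deposited log2 values, 1 for each probe set on each array. RMA and Partek appear in the submitters' processing notes; their versions and the genome build are not stated in the sources used here. Array medians were 4.58 to 4.62. RMA makes the distributions nearly equal, so shifts in RNA content per cell are hidden. Arrays have no read depth.

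Of 35557 probe sets, 21789 had 1 symbol in the platform annotation, 1621 several and 12147 none. For 21698 of the first the gene ID was in RefSeq (GRCm38.p6), with 0 symbols changed. The floor was the 95th percentile of 1210 receptor probe sets. Differences were counted past 1.5-fold (0.585, log2). limma 3.58.1 (R 4.3.3; lmFit, eBayes, Benjamini-Hochberg at 0.05) fitted stimulation and vector as additive terms; its 1 residual degree of freedom is their interaction, not the spread of cultures. The code was run on simulated additive changes with equal normal noise and no interaction. That setting differs from these arrays, so the run does not show how the fit behaves on them. Python 3.11.15, pandas 2.3.3, numpy 2.4.6 and matplotlib 3.10.9 were used.

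Named are all members, 10 measured regulators, and up to 4 further genes per list and comparison with the largest absolute difference; other further genes past 1.5-fold between the vectors in both states were added after their values were seen. Members and lists were chosen with earlier results of these data known. Of 125 further genes 8 had no probe set of their own symbol and were not analysed here; older symbols were matched through RefSeq synonyms.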

Additional observations from a re-analysis of the deposited data

Results flagged for a closer look

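Atf3 differed between the vectors in opposite directions in the 2 states, past the noise reference in each: -0.91 (log2, miR-155 minus control) without stimulation and 1.39 with it. The difference between these values was not tested, since each rests on 1 array per group. No other member above the floor had opposite signs past the noise reference, either between the states or between the vectors. Groups of 1 array cannot be searched for outlying samples.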

How the results depend on the processing

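No paired analysis was possible because each group has 1 array. All 25 arm and overall medians stayed within the noise reference of their values under no floor, a floor at the 99th percentile, renewed quantile normalization, centring and the mean of probe sets (125 values). This limit was larger than most of the medians, so a median could change sign and still count as staying. The ATF4 median with stimulation in control cells did so, from -0.03 to 0.02 under renewed quantile normalization and to 0.01 under centring. So did the ER median with stimulation in miR-155 cells, from -0.02 to 0.01 under renewed quantile normalization. The NRF2 median between the unstimulated vectors went from 0.06 to -0.002 without a floor. The overall and NRF2 medians for the difference of the responses each went from 0.004 to -0.02 under centring. All ATF4 members lay above the floor with 1 probe set each, so removing the floor or averaging probe sets could not change their medians. Of 60 values for the counts of members past 1.5-fold, 50 stayed within 1.5 times. At 2-fold the counts in control cells with stimulation were 2 higher and 4 lower, in miR-155 cells 0 lower; between the vectors 1 was lower without stimulation, and 3 were higher and 4 lower with it; for the difference of the responses 3 were higher and 1 lower. With renewed quantile normalization or centring, 1 member instead of 2 was past 1.5-fold lower with stimulation in miR-155 cells. limma called 2 genes for stimulation, neither a member, under renewed quantile normalization, centring or an intensity trend, and 0 for the vector under these and without a floor. Averaging probe sets could alter only Pdia4, Hsp90aa1 and Hspa8, the members with more than 1 probe set of their own symbol. For all others that setting returned the same value. Of 159 recomputed member differences past 1.5-fold, these unchanged ones included, 153 stayed past it. The 6 others were Atf4 (-0.57, stimulated, quantile) and Slc7a1 (-0.57, quantile, and -0.58, centred), Gclc (0.57, difference of responses, centred), and Pdia4 with its dim probe set averaged in (0.48 between stimulated vectors, 0.30 for the difference of responses). The median of all genes moved by less than 0.1 under each scaling. The cause of these shifts was not tested.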
